A study of Mus musculus with 8 samples.

Results

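The clustered protocadherin genes of the mouse lie side by side on chromosome 18. Binding of the enzyme TET1 over these genes was described from all peaks that overlapped a window of 930 kb, from 37.08 to 38.01 Mb of chromosome 18 in the mm9 build, in each of 6 lists of ChIP-seq peaks. The window held 593 of the 446708 peaks of the 6 lists. Merged where they overlapped or touched, these made 122 of the 137027 regions found over all lists. Members were chosen by position alone, so their coverage and their response to treatment were not used to choose them.

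The study profiled TET1 carrying an HA tag at its own gene in mouse embryonic stem cells, the self-renewing cells of the early embryo grown in culture with serum and leukemia inhibitory factor. The cells are named mESHA-Tet1. The design text gives the line as E14TG2a, the labels give the strain as C57BL/6N, and all samples share the genotype HA-Tet1. Permeabilised cells of the 3 mock replicates were incubated without nuclease. Cells of the 3 treated replicates were incubated for 20 min with RNase H1 at 0.2 U/ul, which cuts RNA paired with DNA, together with Nuclease S1 at 0.05 U/ul, which cuts single-stranded nucleic acid. The sample labels name the agent as RNAse H1 only, and no sample received either enzyme alone, so their effects cannot be told apart. Cells of both groups were then crosslinked with DSG and formaldehyde, and chromatin was precipitated with an HA antibody. The amount of RNA-DNA hybrid at any site is not analysed here. The labels do not say whether the replicates were separate cultures. The p-values below therefore reflect the spread of these libraries alone, and that spread may be technical.

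Clustered protocadherins are cell-surface adhesion proteins best known from the nervous system, where combinations of them give neurons an identity that lets a cell tell its own branches from those of others. In the Pcdha and Pcdhg clusters each variable first exon has its own promoter and is spliced to shared constant exons, while each Pcdhb gene is a single-exon unit. Promoter choice is largely stochastic in neurons and is tied to CpG methylation and to the architectural protein CTCF. TET1 oxidises 5-methylcytosine, the first step of DNA demethylation, and binds CpG-rich DNA through its CXXC domain. Embryonic stem cells are not neurons, and expression and methylation are not analysed here.

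The RefSeq gene order of the GRCm38.p6 assembly was used for names and neighbours only, since the peak lists are in mm9. It gives 58 clustered genes, of which 14 are Pcdha, 22 are Pcdhb and 22 are Pcdhg. The Pcdha genes come first, 12 numbered genes followed by the 2 C-type genes Pcdhac1 and Pcdhac2. The Pcdhb genes follow, and then Slc25a2, a mitochondrial carrier gene, and Taf7, a gene for a subunit of the general transcription factor TFIID. The Pcdhg genes come last, 12 of them of the Pcdhga, 7 of the Pcdhgb and 3 of the Pcdhgc type, with Pcdhgb8 annotated as a transcribed pseudogene. The neighbours are Zmat2 before the clusters and Diaph1 after them. Regions were not assigned to single genes, and positions are given as distances from the start of the window.

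Peaks were deposited with a fold enrichment and a p-value, and the number of fragments at each summit was recovered from these. Summit coverage is given below as a multiple of the library's genome-wide background, which does not use the input and does not scale with depth. Over all peaks its median was 7.99 to 8.45 times background in the mock and 7.59 to 8.30 in the nuclease-treated libraries. Lists held 73602 to 83601 peaks in mock and 62161 to 74404 after nucleases. Total fragment numbers are unknown, so no interval for depth can be given. The genome-wide background was 2.253, 2.232 and 2.131 fragments in mock and 2.105, 1.929 and 2.239 after nucleases. The part of depth in peak number and covered sequence was not tested. Local background, by contrast, rests on 1 pooled input per condition and is therefore not replicated.

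TET1 peaks covered the window densely. They made up 4.69% to 5.63% of the chromosome 18 peaks of a library, in a window that takes 1.06% of the span from the first to the last peak of that chromosome. When the genome was cut into tiles as long as the window, the median tile with a peak held 12 to 13 summits in the mock lists. The window held more summits than any of the chromosome 18 tiles in mock 1 and mock 3, and than all but 1 in mock 2. Genome-wide, 143 to 188 of 2768 to 2769 tiles held more in the mock lists, so such density was not particular to the protocadherins. The peaks themselves were of moderate height. Among regions found in all 6 lists, the mean mock coverage ran from 8.17 to 20.4 times background in the window, with a median of 13, against a median of 12.7 and a highest value of 187 over the genome.

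The peaks fell into 12 stretches separated by gaps of over 20 kb. A first stretch, 0.143 to 102 kb from the window start, held 29 regions. After it came sparse sequence with 1 to 3 regions per stretch, until a stretch at 344 to 437 kb with 9 regions. The stretches at 482 to 529 kb, 555 to 602 kb and 623 to 683 kb held 6, 11 and 6 regions. The longest, at 718 to 848 kb, held 39 regions in 130.0 kb. It also held the highest peak of each list except nuclease-treated 2. The last, at 886 to 925 kb, held 14 regions, among them the widest merged region of the window at chr18:37965689-37968722, 3034 bp. A single peak of 2889 bp in nuclease-treated 3 joined it. The other lists, mock and treated alike, had separate peaks there, 1198 bp wide on average in mock.

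**Figure D1:**
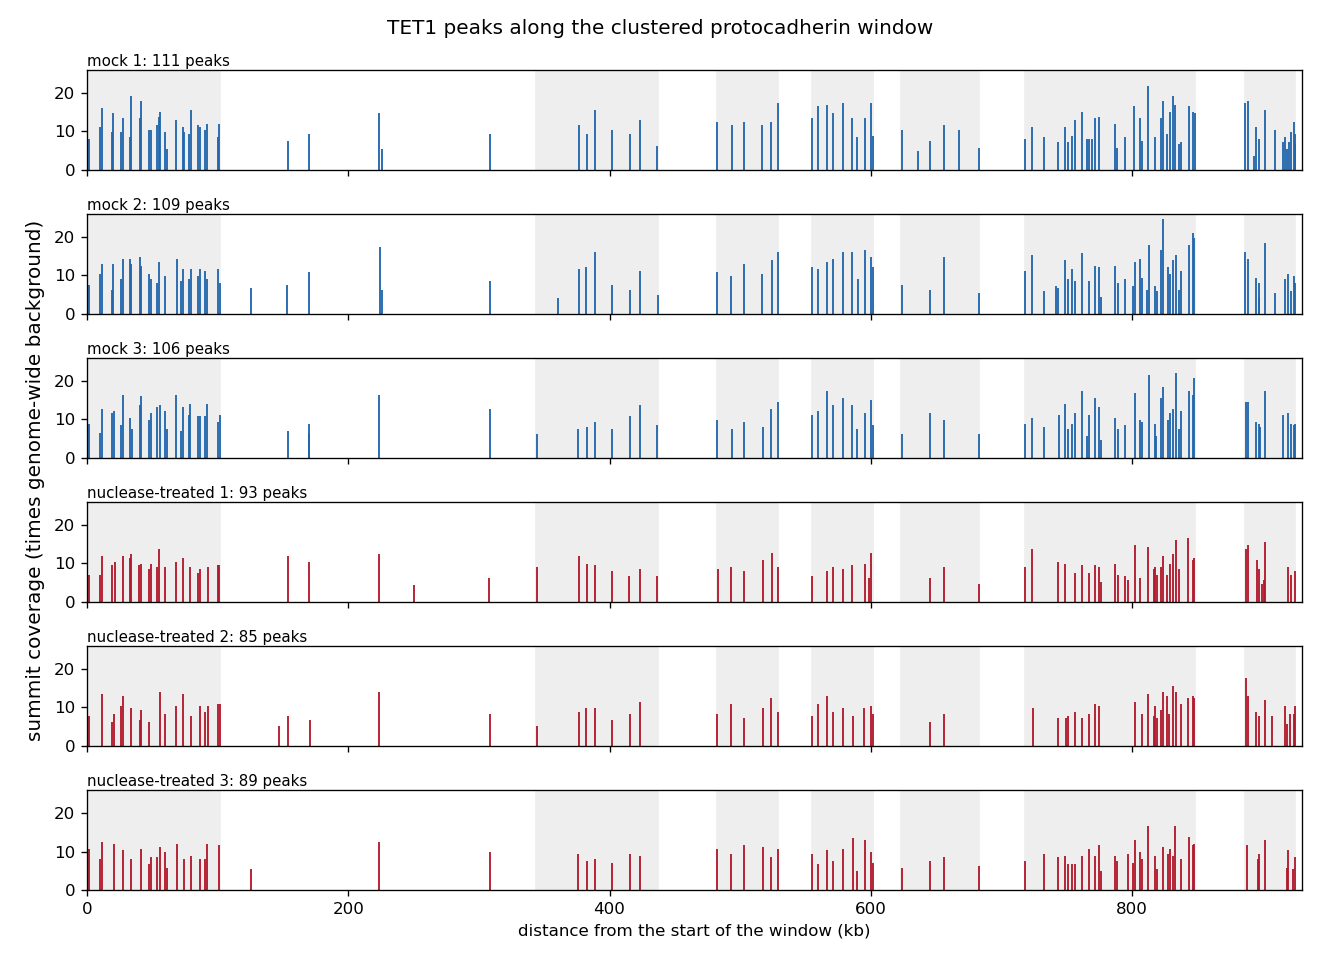
TET1 peaks along the 930 kb window, 1 panel per library. Each line stands at a peak summit, its height is the summit coverage in multiples of the genome-wide background, and grey bands mark stretches of 5 regions or more. The positions recur between libraries, and the highest line is 24.6 in mock 2 and 17.6 in nuclease-treated 2.

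Fewer and lower peaks were listed in the window after nuclease treatment. The mock lists held 111, 109 and 106 peaks in the window, and the nuclease-treated lists 93, 85 and 89. The lowest mock list thus held more than the highest treated list. The means were 109.0 ± 2.52 and 89.0 ± 4.00 (SD, n = 3 each), a difference of -19.7 peaks or -18.1% (two-sided exact permutation test, p = 0.1, the smallest that 3 against 3 samples can give, adjusted p = 0.175 over the 7 measures of the window).

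Window sequence under a peak was 70.4, 70.29 and 68.89 kb in mock and 57.88, 53.18 and 57.22 kb after nucleases. The groups did not overlap, with means of 69.9 ± 0.845 and 56.1 ± 2.54 kb (exact permutation p = 0.1, adjusted p = 0.175). The median distance between neighbouring summits was 4760, 4886 and 4655 bp in mock and 5594, 5625 and 5264 bp after nucleases. Here too the groups were apart, by 728 bp on average (exact permutation p = 0.1, adjusted p = 0.175). The median width was 575, 578 and 599 bp in mock and 565, 603 and 605 bp after nucleases, and the groups overlapped (exact permutation p = 0.8). With a stricter q threshold the difference in peak number was -42.3, and with peaks of low local background -42.7, with the groups apart both times. The low local background setting removed 22.1% of mock and 52.9% of treated window peaks on average. Its larger difference in number was thus built in. Under these settings the median width differed by 77.3 bp with the groups apart (stricter q threshold, exact permutation p = 0.1) and by 61 bp with overlap (low local background, exact permutation p = 0.2).

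The median summit coverage of the window peaks was 11.1, 11.2 and 11.03 times background in mock and 9.02, 9.33 and 8.93 after nucleases. In fragments these medians were 25, 25 and 23.5 against 19, 18 and 20.0. Every treated library was below every mock library, with a difference of -2.01 times background or -18.1% (exact permutation p = 0.1, adjusted p = 0.175). Peaks of 10 times background or more numbered 66, 62 and 60 in mock and 29, 35 and 31 after nucleases (62.7 ± 3.06 and 31.7 ± 3.06, exact permutation p = 0.1, a count chosen after these lists had been seen). As a share of the window peaks these were 59.5%, 56.9% and 56.6% in mock and 31.2%, 41.2% and 34.8% after nucleases. Over all peaks of the lists the share was 33.9% to 35.4% in mock and 23.7% to 28.9% after nucleases. Whether the falls differed was not tested. The highest peak of each list stood at 21.8, 24.6 and 22.1 times background in mock and at 16.6, 17.6 and 16.5 after nucleases. The lowest peaks, which the calling threshold sets, stood at 3.55 to 4.69 and 4.27 to 5.19.

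**Figure D2:**
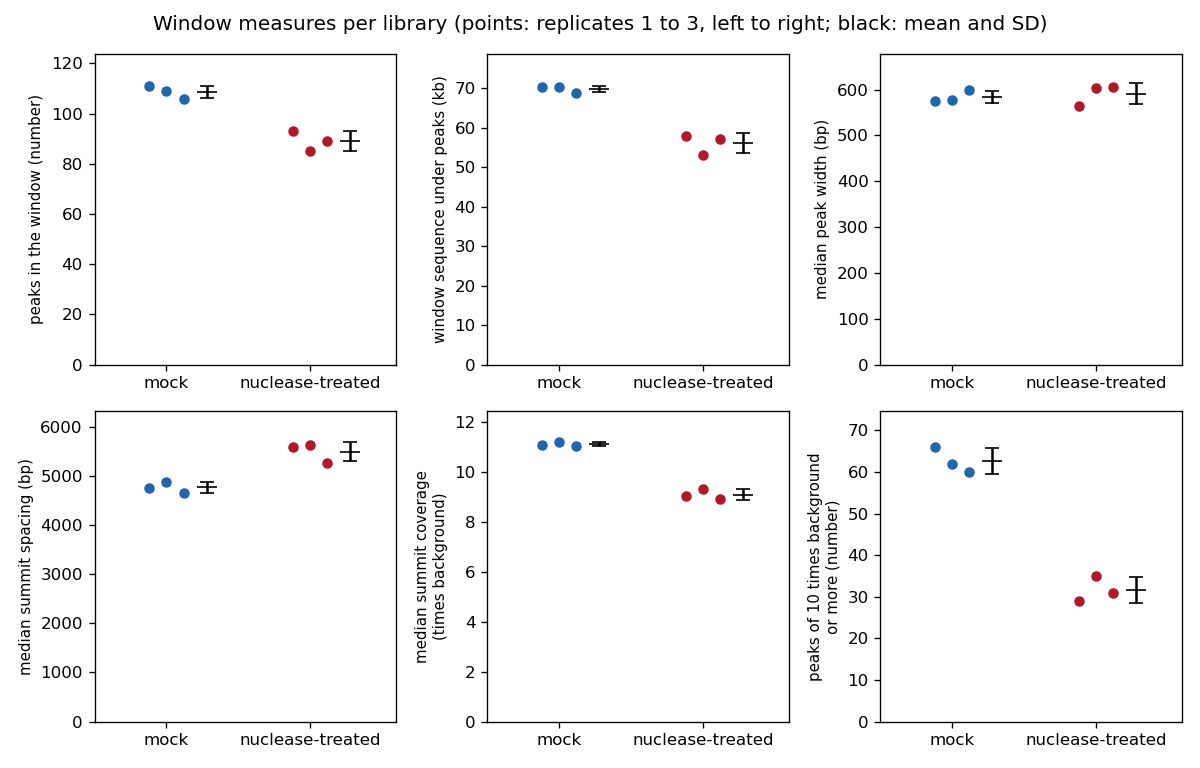
Measures of the window per library, with mock in blue and nuclease-treated in red, points for replicates 1 to 3 and black marks for the mean and SD. The groups are apart for peak number, covered sequence, spacing, summit coverage and peaks of 10 times background or more, and overlap for the median width of 565 to 605 bp.

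The local background under the window peaks moved with the treatment as well. Its median was 1.22, 1.24 and 1.23 times the genome-wide level in mock and 1.53, 1.53 and 1.49 after nucleases. The authors' fold enrichment, which divides by it, had medians of 6.76, 6.50 and 6.56 in mock and 4.69, 4.63 and 4.90 after nucleases. The share of window peaks with a local background above 1.5 times genome-wide was 18.3% to 26.4% in mock and 46.1% to 57.6% after nucleases. Its part in the lower number of listed peaks was not tested. The summit coverage does not divide by the local background.

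Measured against the rest of each library, the window's change depended on the setting. Its share of all peaks in a list was 0.1328%, 0.1325% and 0.1440% in mock and 0.1316%, 0.1367% and 0.1196% after nucleases (exact permutation p = 0.4, adjusted p = 0.467). Among regions found in all 6 lists, the median log2 coverage of the window less that of the genome changed by -0.05 between the groups, with overlapping values (exact permutation p = 0.3, adjusted p = 0.42). Neither difference was larger than the spread between libraries. The difference in share was -0.0257 points with lists cut to equal length, -0.0219 with a stricter q threshold and -0.0218 with peaks of low local background, with the groups apart each time (exact permutation p = 0.1). Leaving out 1 library moved it between -0.00227 without nuclease-treated 3 and -0.0108 without nuclease-treated 2, and it was -0.00332 without mock 3. The relative log2 change was -0.0689 with the groups apart when peaks up to 500 bp apart were joined (exact permutation p = 0.1). With peaks of low local background it was -0.147 (exact permutation p = 0.2), and among regions of 10 times background or more 0.041, of opposite sign. Without mock 2, mock 3 or nuclease-treated 3 it was -0.0898, -0.0752 and -0.0702.

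Of the 122 regions of the window, 60 had a peak in all 6 lists, a share of 49.2% against 21.6% of all regions. Regions seen in a single list numbered 14, or 11.5% of the window against 34.0% of the genome. These 14 were low, with a median coverage of 5.28 times background, and 7 were in a mock and 7 in a treated list. A total of 94 regions were present in all 3 mock lists. Of these, 60 were in all 3 treated lists, 23 in 2 of them, 10 in 1 and 1 in none. That region, chr18:37157567-37157971, had mock coverages of 9.32, 8.96 and 11.3 times background. A share of 1.06% of the window's mock regions was thus missing from every treated list, where the genome gave 6.67%. No region of the window was in all 3 treated lists and in no mock list, a class that took 1.68% of the regions in all 3 treated lists over the genome. With a stricter q threshold 10 of 71 window regions in all mock lists were in no treated list (14.1%, genome 18.2%), and with lists of equal length 3 of 86 (3.49%, genome 5.99%).

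To set each treated list beside a mock list that had no part in the choice, regions were chosen in any 2 mock lists and looked for in the third mock list and in each treated list. Recovery in the left-out mock list was 96.9% for each of the 3 choices. In the treated lists it was 85.2%, 78.0% and 82.5%, below every mock value (exact permutation p = 0.1). The 3 mock values count the same recovered regions, those in all 3 mock lists, so they are not independent. Swapping labels would also need a new choice of regions, which was not made. The p-values of recovery, here and below, thus only rank finished percentages. Over the genome the same comparison gave means of 86.7% ± 3.40 and 73.3% ± 3.59. The fall in the window, -15.0 percentage points, and the genome's, -13.5, differed by -1.55 points, within the spread (exact permutation p = 0.7). Among regions of 10 times background or more the falls were -9.57 and -8.44 points. With peaks of low local background they were -52.3 and -40.6, and the window less the genome differed by -11.7 points with the groups apart (exact permutation p = 0.1). That setting removed a larger share of treated than of mock peaks.

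These regions were all chosen in mock lists, where coverage was higher. When regions were instead chosen in any 2 treated lists, recovery was 97.2%, 98.6% and 99.0% in the mock lists and 89.7%, 84.7% and 87.1% in the left-out treated lists. The treated lists again lay below the mock lists, by -11.1 points (exact permutation p = 0.1). The genome's difference was -5.86 points, and the window less the genome differed by -5.21 points with the groups apart (exact permutation p = 0.1). Whether the window lost more regions than the genome thus depended on how regions were chosen.

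Summit coverage was then compared region by region with limma, fitted over the 29613 regions of the genome found in all 6 lists. Of the 60 window regions, 17 were lower after nucleases at an adjusted p below 0.05 and 0 were higher. Over the genome 36.0% were lower and 0.206% higher, so calls were not more frequent in the window than in that background. At an unadjusted p below 0.05 there were 21 regions of the window, where the genome gave 45.1%. On the authors' fold enrichment the count was 34 of 60, where the genome gave 55.4%. Without mock 1 it was 8 of 61 (genome 27.5%), and with peaks of low local background 1 of 17 (genome 10.0%). The median log2 change was -0.33 in the window and -0.35 over all regions, and 54 of the 60 had a log2 change below 0, as did 84.3% of all regions. The values of the groups did not overlap for 23 of the 60, with treated lower, where the genome gave 44.7%. They were apart in the other direction for 1 region, chr18:37896653-37897632, where the genome gave 1.39%. That region had 8.43, 7.17 and 8.92 times background in mock and 9.02, 10.4 and 8.93 after nucleases, and its log2 change of 0.21 ± 0.21 (SE) did not pass the limma test (adjusted p = 0.458). Mock 3 and nuclease-treated 3 were thus almost equal there. Its peaks were 899 bp wide on average in mock and 345 bp after nucleases, with separate short peaks in nuclease-treated 1 and 2.

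When each library was first centred on its median over all regions, limma called 0 window regions, where the genome gave 4.63% lower and 1.67% higher. At an unadjusted p below 0.05 that fit had 6, where the genome gave 24.3%. No single window region was thus called beyond the shift shared by all regions, and the smallest adjusted p in limma on centred values was 0.0742.

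That smallest value belonged to the region with the largest change, chr18:37841407-37842281, in the stretch at 718 to 848 kb. Its coverage was 15.1, 15.7 and 17.4 times background in mock and 9.50, 7.26 and 8.93 after nucleases. The treated libraries all lay below the mock ones, a log2 change of -0.91 ± 0.19 (SE, limma adjusted p = 0.000488). Next came chr18:37658146-37658940 in the stretch at 555 to 602 kb. It had 17.3, 16.1 and 15.5 times background in mock and 8.55, 9.85 and 10.7 after nucleases (log2 change -0.75, limma adjusted p = 0.00195). Close to it in size of change was chr18:37608787-37609474, the last region of the stretch at 482 to 529 kb. It had 17.3, 16.1 and 14.5 times background in mock and 9.02, 8.81 and 10.7 after nucleases (log2 change -0.75, limma adjusted p = 0.0022). In both, every treated value was below every mock value.

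The 2 highest regions of the mock libraries also fell. The first, chr18:37892063-37892990, had 21.8, 17.9 and 21.6 times background in mock and 14.2, 13.5 and 16.5 after nucleases (log2 change -0.47, limma adjusted p = 0.0275). The other, chr18:37903170-37904093, had 17.8, 24.6 and 18.3 in mock and 11.9, 14 and 11.2 after nucleases (log2 change -0.70, limma adjusted p = 0.00262). Neighbours at the end of that stretch, chr18:37925766-37926837 and chr18:37927054-37928127, had mock means of 17.5 and 18.3 and treated means of 11.8 and 12 times background. Both fell, with log2 changes of -0.56 and -0.60 (limma adjusted p = 0.0162 and 0.00909).

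Other high regions of the same part of the window did not pass the test. The region chr18:37912832-37913485 had 16.9, 15.2 and 22.1 times background in mock and 16.1, 14 and 16.5 after nucleases, with overlapping groups (limma adjusted p = 0.394). At chr18:37922873-37923714 the means were 17.2 ± 0.755 and 14.3 ± 2.13 (limma adjusted p = 0.215). Far from both, chr18:37303067-37304454 stands nearly alone in the sparse sequence at 224.1 kb. It had 14.6, 17.5 and 16.4 in mock and 12.3, 14 and 12.5 after nucleases (limma adjusted p = 0.154), with groups that did not overlap.

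The called regions were spread unevenly, on few tested regions per stretch. Over the genome 36.0% of the regions tested were called lower, and on median-centred values limma called 0 of the 60 window regions. The stretch at 555 to 602 kb held 6 of the 17, among 7 regions tested there, with a median log2 change of -0.62. The stretch at 718 to 848 kb held 7, among 18 tested, with log2 changes from -0.91 to 0.21. The first stretch held 2 among 15 tested, chr18:37121110-37122463 and chr18:37158717-37160024, with log2 changes of -0.61 and -0.67. The stretches at 344 to 437 kb and 482 to 529 kb held 1 each, among 6 tested in each.

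In the stretch at 555 to 602 kb the called regions lay close together. The first, chr18:37634682-37635678, had a mean of 12.2 ± 1.03 times background in mock and 7.94 ± 1.37 after nucleases. At chr18:37646069-37647015 the means were 15.9 ± 2.14 and 10.4 ± 2.45, and at chr18:37650572-37651499 they were 14.2 ± 0.534 and 8.48 ± 0.773. After chr18:37658146-37658940, described above, followed chr18:37665355-37666294, where 13.3, 16.1 and 13.6 in mock stood against 9.50, 7.78 and 13.4 after nucleases. In that region treated 3 lay among the mock values, and its limma adjusted p was 0.0436. The last, chr18:37679406-37680444, had means of 15.7 ± 1.4 and 11 ± 1.6. The other called regions of the stretch at 718 to 848 kb were chr18:37828702-37829550, with means of 13 and 8.72, and chr18:37850892-37851873, with means of 13.8 and 9.77. In the stretch at 344 to 437 kb it was chr18:37468626-37469596, at 15.5, 16.1 and 9.39 in mock and 9.50, 9.85 and 8.04 after nucleases, so that mock 3 lay among the treated values. Differences between stretches were not tested.

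The last stretch held wide merged regions and no call, among only 4 regions tested there. The widest, chr18:37965689-37968722, had 17.8, 16.1 and 14.5 times background in mock and 14.7, 17.6 and 11.6 after nucleases (limma adjusted p = 0.538). A second, chr18:37974955-37977766, spanned 2812 bp only after merging. Each list had several separate peaks in it, with mean widths of 644 bp in mock and 965 bp after nucleases. It had 11.1, 9.41 and 9.39 in mock and 10.9, 8.81 and 9.38 after nucleases. The third, chr18:37980872-37982690 of 1819 bp, had 15.5, 18.4 and 17.4 in mock and 15.7, 11.9 and 13 after nucleases (limma adjusted p = 0.125). The groups overlapped in all 3.

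**Figure D3:**
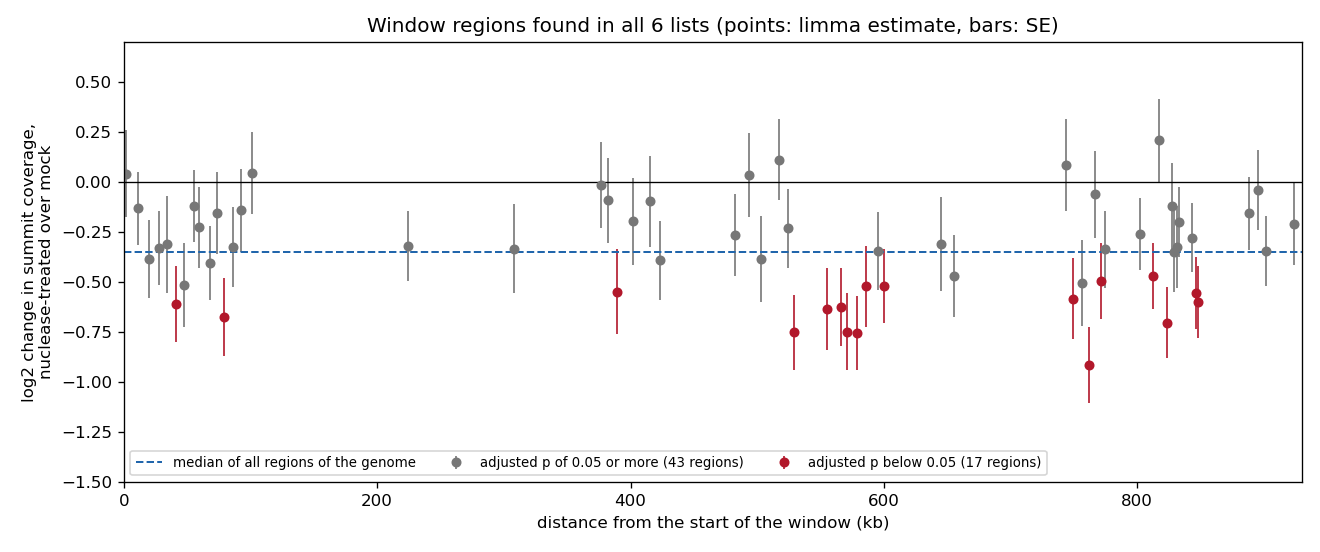
Log2 change in summit coverage, nuclease-treated over mock, of the 60 window regions found in all 6 lists, by distance from the window start. Points are limma estimates and bars their SE, red points have an adjusted p below 0.05 (17 regions), and the dashed line is the median of all regions of the genome, -0.35. Of the 60 points, 54 lie below 0.

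The first stretch had a repeated layout. Its 29 regions mostly alternated between narrow and wide ones at short distance. A pair was defined, after the lists had been seen, as neighbouring regions at most 1.5 kb apart, each in 2 or more mock lists. By this definition 26 of the 28 such regions of the stretch (92.9%) stood in 13 pairs. In the whole window 58 of 103 (56.3%) stood in 29 pairs, and over the genome 20.5% stood in pairs. The stretch at 718 to 848 kb had 24 of 34 (70.6%) in 12 pairs, and the stretches at 344 to 437 kb and 482 to 529 kb had none.

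Within the first stretch most pairs were alike. The gap between the regions of a pair ran from 625 to 814 bp, with a median of 746 bp and an SD of 59.4 bp over 13 pairs. The narrower region came first along the chromosome in 12 of 13. The exception, chr18:37139647-37140127 with chr18:37140877-37141233, joined 2 narrow regions, 418 and 321 bp wide in the mock lists. Median widths in the mock lists were 368 bp for the narrower and 1062 bp for the wider region, and median mock coverages 9.85 and 13.2 times background. Regions of 800 bp or wider followed each other at 5.19 to 13.3 kb, with a median of 7.10 kb. In the stretch at 718 to 848 kb the gaps were less even, 216 to 1316 bp (SD 309 bp), and the narrower region came first in 6 of 12. The variable genes of a cluster are related copies, so pairs are not counted as independent of each other.

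An example is the pair of chr18:37157567-37157971 and chr18:37158717-37160024. The first is the 405 bp region found in all 3 mock lists and in no treated list. The other, 745 bp further on, was 1308 bp wide and was in all 6 lists, at 15.5, 11.6 and 14.1 times background in mock and 9.02, 7.78 and 8.93 after nucleases (log2 change -0.67, limma adjusted p = 0.00784). In the pair of chr18:37089858-37090241 and chr18:37090988-37092282, the narrower was in 3 mock and 2 treated lists and the wider in all 6, with means of 13.9 and 12.6 times background (limma adjusted p = 0.612).

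**Figure D4:**
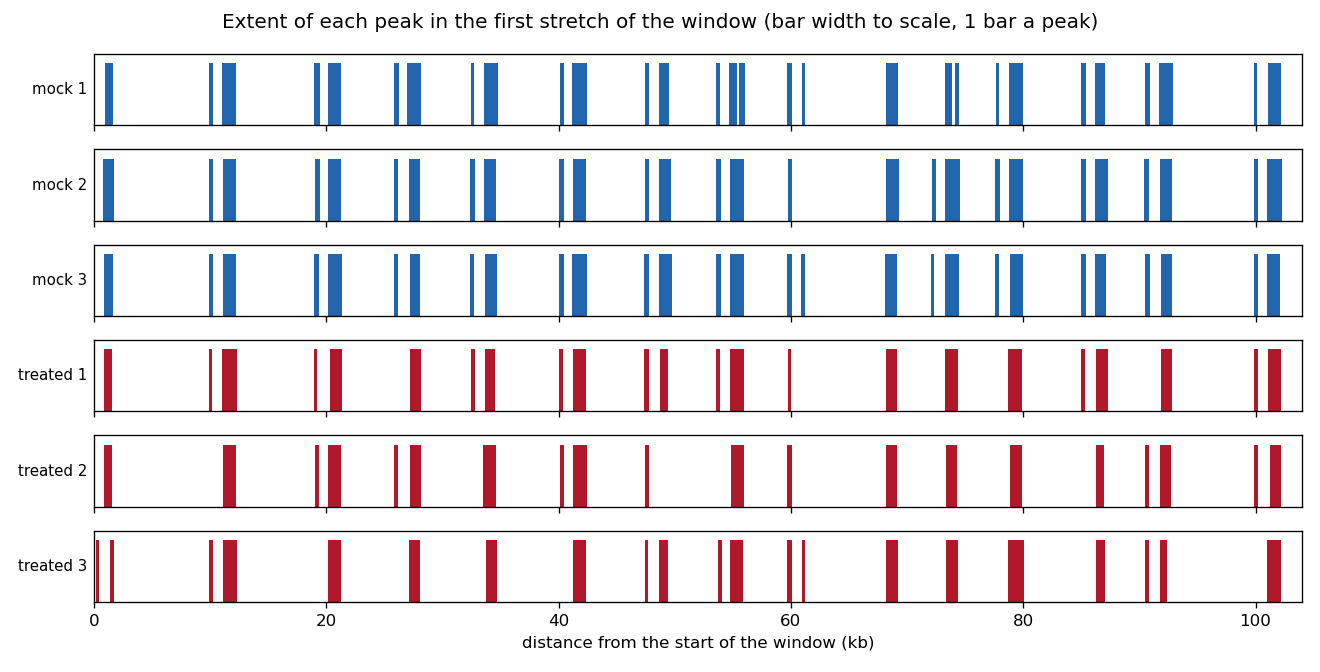
Extent of every peak in the first stretch of the window, 0.143 to 102 kb from its start, drawn to scale for each library, with mock in blue and nuclease-treated in red. Narrow bars ahead of wide bars recur along the mock tracks, and more narrow than wide bars are missing from the treated tracks.

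Narrower regions of pairs were missed more often in the treated lists than wider ones. With pairs chosen only in mock lists, in any 2 of them, and looked for in the other lists, the narrower region was found in 88.0%, 91.7% and 95.7% of window pairs in mock. After nucleases it was found in 65.2%, 56.9% and 57.0%. The wider region was found in 100.0% in each mock list and in 95.8%, 86.2% and 97.2% after nucleases. The recovery of the narrower less that of the wider was thus -8.23 ± 3.83 points in mock and -33.4 ± 5.98 after nucleases, without overlap (difference -25.1 points, exact permutation p = 0.1). Pairs were chosen in mock lists, so the p-values for pairs also only rank finished percentages. Where only peaks of low local background were used, the difference was -16.8 points and the groups overlapped (exact permutation p = 0.2).

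Over the genome, with 5291 to 5841 pairs, the same difference was -6.62 points. The window exceeded it by -18.5 points, and the groups did not overlap (exact permutation p = 0.1, the smallest possible). Within the window the same difference was -39.1 points in the first stretch (exact permutation p = 0.1). In the longest stretch it was -11.7, with overlapping groups (exact permutation p = 0.2). The excess was thus not shown for the window as a whole. Widths of the genome's pairs were not compared with those of the window, so it was not tested at like widths. In mock the narrower regions stood at 9.40 to 10.3 times background in the window and 8.48 to 8.71 over the genome, and the wider ones at 12.4 to 13.8 and 10.9 to 11.2. The wider regions of the window were all found in every mock list, so their recovery could not be higher there, while those of the genome were at 91.5% to 95.4%. Among regions with a listed peak, the median local background was close to equal between narrower and wider regions. It was 1.24 and 1.25 in mock, and 1.55 and 1.59 in the treated libraries. Regions missing from a treated list have no such value, so their local background there is not known. Since narrower regions were also lower, the parts of width and height in their loss were not separated.

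In the first stretch most of the regions missed were narrower ones. The narrower regions were found in 91.7%, 91.7% and 100.0% in mock and in 68.7%, 51.5% and 37.1% after nucleases, on 11 to 12 pairs. Its wider regions were found in all mock lists and in 100.0%, 91.4% and 100.0% after nucleases. In the stretch at 718 to 848 kb the narrower regions went from a mean of 90.6% to 68.8% and the wider ones from 100.0% to 89.9%. The 2 stretches are not a like contrast. Pairs of the first had median mock widths of 368 and 1062 bp, those of the stretch at 718 to 848 kb only 414 and 614 bp. There the difference between narrower and wider, -11.7 points, did not exceed the spread between libraries (exact permutation p = 0.2).

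**Figure D5:**
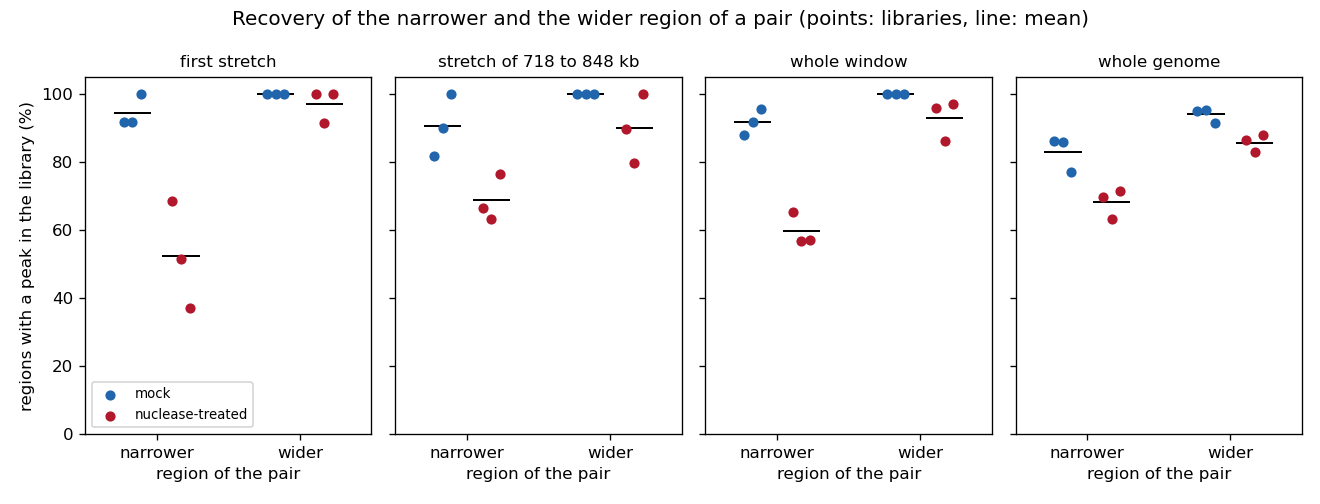
Percent of pairs whose narrower or wider region had a peak in a library, for pairs chosen in 2 mock lists, in 2 stretches of the window, the whole window and the whole genome. Points are libraries (mock blue, nuclease-treated red) and lines are means. For the narrower regions of the whole window the treated points lie at 56.9 to 65.2%, below the mock points at 88 to 95.7%.

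Summits shifted little between lists. Between 2 mock lists the median distance of the summits of a shared window region was 43.5 to 67.5 bp, between 2 treated lists 97 to 110.0 bp, and between a mock and a treated list 58 to 102 bp. Summits thus differed between the groups by no more than they did among treated lists.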

How the data were processed

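Each of the 6 ChIP libraries has 1 deposited list of peaks, and per the peak names in the files the authors called each against 1 input pooled for its condition. The submitters' processing notes name MACS2 2.1.1, Bowtie2 2.2.8, deepTools 2.4.3, bedtools 2.25.0, SAMtools 1.3.1, Picard and bcl2fastq, and as builds mm9 and NCBIM37. What settings they ran with is not given in the sources used here. The lists hold the authors' fold enrichment (a ratio over local background), −log10 p-value, −log10 q-value, score (from the q-value) and summit position. Input libraries were not used here except through these values.

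Whole-number summit coverage was recovered from the deposited fold and p by MACS2's formulas, taking values that matched within 0.001 of the −log10 p. All peaks matched except 1 in mock 3, outside the window. The most frequent local background of a list was its genome-wide background, at 1.929 to 2.253 fragments. Intervals were not computed, and a single peak of about 20 fragments is imprecise.

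Peaks of the 6 lists were merged where they overlapped or touched. A region's value in a library is its highest summit coverage over background, in log2 and with no pseudocount for limma 3.58.1 (eBayes with trend, R 4.3.3). Benjamini-Hochberg adjustment ran over all regions found in all 6 lists, so regions missing from a list were not tested. Measures per library were compared by exact two-sided permutation tests over 20 label orders, adjusted over 7 measures. For recovery and pairs the labels of finished percentages were permuted, without a new choice of regions for each order. The recovery of coverage and the limma fit were tested on simulated data.

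Groups came from the sample titles. Named regions were the 12 highest in mock, the regions found in 1 group only, those past the limma threshold and the widest, plus examples chosen after their values were seen (the region whose groups were apart with treated higher, the wide regions of the last stretch and 1 pair). The members and lists were chosen with earlier results of these data known. Recovery, pairs and peaks of 10 times background or more were added after the data had been seen. Alternatives are in the closing section.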

Additional observations from a re-analysis of the deposited data

How the results depend on the processing

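Of 141 alternative values computed, 125 kept their direction and their side of the threshold or stayed within the limits set for counts. For measures compared by permutation tests the side was fixed in advance. Their smallest possible p, 0.1 or higher, lies above the threshold of 0.05, so only the direction could change. Median width was thus counted as kept although its exact permutation p went from 0.8 to 0.1 with the stricter q threshold. So was the share of all peaks, from exact permutation p = 0.4 to 0.1 with lists of equal length. Widening the window by 100 kb on each side turned the difference in median width to -5.17 bp, and taking only regions of 10 times background or more turned the window's log2 change relative to all regions to 0.041. The number of window regions called lower, 17, was 34 with the authors' fold enrichment, 1 of 17 tested with peaks of low local background, 0 after median centring, and 8 to 16 when 1 library was left out, with 8 without mock 1. The replicate numbers did not pair the samples (correlations of deviations of 0.0134, -0.00489 and 0.0379), and replicates 1 and 3 but not 2 correlated best with their own number. With the replicate block 17 regions were called and the difference in peak number was -19.7. Mock-only regions numbered 10 with a stricter q threshold, 3 with lists of equal length, 3 where a peak had to cover 50% of the region, and 2 to 6 when 1 library was left out. Nuclease-only regions numbered 0 to 1 when 1 library was left out. The difference in peak number was -42.3 with the stricter q threshold (above the pooled median of 6.59). It was -42.7 with peaks of low local background, a setting that removed 22.1% of mock and 52.9% of treated window peaks on average. Covered sequence then differed by -26.6 and -27.7 kb, and spacing by 3718.5 and 4446.7 bp, each second value in part through that removal. The share of all peaks then differed by -0.0219 and -0.0218 points, and by -0.0257 with lists of equal length (exact permutation p = 0.1 each time). Median width differed by 77.3 bp with the stricter q threshold (exact permutation p = 0.1). The excess loss of narrower regions was -16.8 points with peaks of low local background (exact permutation p = 0.2). A summit of about 20 fragments and 3 libraries per group limit what can be told of a single region.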
